A study of Homo sapiens with 8 samples.

Results

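The comparison described here set MDA231 breast cancer cells that had lost SDHB and were also depleted of SDHA against the parental MDA231 cells from which they were derived. Of the 8 samples in the study, 5 enter it by the genetic modification in their labels: 3 samples of SDHB knockout cells with SDHA knockdown (SDHBKOSDHAlow) and 2 samples of unmodified parental cells. The 3 samples of SDHB knockout cells with SDHA intact (SDHBKO) were fitted together with them and are shown beside them. MDA231 (MDA-MB-231) is an established human line of basal, mesenchymal type. SDHB was knocked out with TALEN nucleases aimed at exon 1, with hygromycin selection, and SDHA was then lowered by a transfected shRNA plasmid with puromycin selection. Parental cells carried none of this, so loss of SDHB, loss of SDHA, the plasmids, the selection and any drift of the sublines cannot be told apart in this comparison. The study's control for the shRNA carried an empty vector, which the SDHBKO labels do not name. SDHBKOSDHAlow and SDHBKO cells may therefore also differ by the shRNA plasmid, the puromycin selection and drift. More than 1 SDHA shRNA was available, and the sequenced SDHBKOSDHAlow samples are titled SH1, a name the labels do not spell out. Whether the sublines were single clones is not stated. All cells were collected from full medium before confluence. Messenger RNA was read from its 3' ends, and the deposited values were read counts per gene. Genes were tested where their normalized count averaged more than 5 over the 8 samples, which left 7550 of 58051.

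Complex II (CII, succinate dehydrogenase) is the enzyme of the TCA cycle that turns succinate into fumarate, and it passes the electrons to ubiquinone in the respiratory chain. SDHA carries the flavin and the succinate site, SDHB carries the iron-sulfur clusters, and SDHC and SDHD anchor the enzyme in the inner mitochondrial membrane, while the SDHAF proteins help to assemble it. SDHBKO cells keep the catalytic subunit SDHA without its partner SDHB, and SDHBKOSDHAlow cells are depleted of both. The comparison with parental cells asks which transcripts differ when both subunits are depleted.

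Between 773042 and 1427141 reads were counted on genes per sample. Levels of genes are given below in CPM, the reads per 1000000 reads on tested genes, scaled by TMM. Per 1000000 reads on all genes and without that scaling, 3 counts corresponded to between 2.10 and 3.88 CPM. SDHBKOSDHAlow replicate 2 was the deepest and stood apart from the other 2 replicates of its group. Its chi-square statistic per degree of freedom was 10.6 and 11.3 against them. That statistic was 3.28 between replicates 1 and 3, 2.18 between the parental samples and 4.92 to 5.83 between the SDHBKO samples. The part of depth in these values was not tested. Multimapping reads made up 9.72% to 12.3% of the reads in parental and SDHBKOSDHAlow samples and 14.5% to 16.1% in SDHBKO samples. The normalized tables of SDHBKO replicates 1 and 3 held the counts of replicates 3 and 1, and the numbers of the raw tables are used here. As a check of the line, 9 listed mesenchymal genes summed to 5973 to 7701 CPM, without TMM scaling, in all 8 samples. ANXA1, 1 of the 9, was below the minimum with 0 to 5 counts. Of 14 listed luminal genes, ESR1 and PGR had 0 counts in every sample, and EPCAM had 1 count in 1 sample. However, 5 of the 14, among them KRT18 and CLDN4, passed the minimum, and the luminal list summed to 1336 to 1987 CPM. The line is thus low in some luminal genes but not in all. The study's methods call the samples of a group biological replicates without saying how they were separated, and the p-values measure the spread between these samples.

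SDHA, the gene targeted by the shRNA, fell in SDHBKOSDHAlow cells. Its level was 74.0 and 91.6 CPM in parental cells and 8.45, 12.7 and 17.8 CPM in SDHBKOSDHAlow cells, a log2 fold change of -2.65 ± 0.31 (SE; edgeR quasi-likelihood test with Benjamini-Hochberg adjustment, adjusted p = 7.89e-05). SDHBKO cells had 148, 135 and 151 CPM, and SDHBKOSDHAlow cells were lower than SDHBKO cells by a log2 fold change of -3.46 (95% interval -4.04 to -2.87, adjusted p = 1.16e-07). All SDHBKOSDHAlow samples lay below all other samples, as their labels state, and no setting tried removed either call. SDHA (ENSG00000073578) lies at chr5:218303-257082 on the plus strand in GRCh38, and reads shared with its pseudogene copies could have been lost as multimapping.

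The other CII genes did not pass the test. SDHAF4, an assembly factor that binds SDHA, was measured at 6.94 and 2.65 CPM in parental, 6.84, 2.22 and 5.40 CPM in SDHBKO, and 12.1, 11.9 and 16.7 CPM in SDHBKOSDHAlow samples. The 3 SDHBKOSDHAlow samples were above all others, but the log2 fold change against parental cells of 1.44 ± 0.66 had an adjusted p of 0.37 (edgeR). SDHC had a log2 fold change of 0.56, SDHAF2, which helps to attach the flavin to SDHA, 0.52, and SDHAF1, which serves SDHB, -0.78. SDHB itself was below the minimum, with 4 and 3 counts in parental, 0, 3 and 1 in SDHBKO and 0, 2 and 1 in SDHBKOSDHAlow samples. The reads come from the 3' end of the transcript, outside the targeted exon 1, so that they do not check the knockout. SDHD had 0 to 3 counts per sample and SDHAF3 had 0 in all 8 samples.

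In all, 69 of 7550 genes (0.914%) were called different between SDHBKOSDHAlow and parental cells at an adjusted p below 0.1. Of these, 17 (0.225%) were higher and 52 (0.689%) lower, and 66 encode proteins. Their absolute log2 fold change was at least 0.75 with a median of 1.503. The samples of the 2 groups did not overlap for any called gene, as was the case for 30.7% of all tested genes, 15.2% above and 15.5% below the parental samples. On the same 7550 genes, SDHBKO against parental cells gave 418 (5.54%; 3.14% higher and 2.40% lower), and SDHBKOSDHAlow against SDHBKO cells gave 114 (1.51%; 0.318% higher and 1.19% lower). These comparisons share samples, so their counts are not independent of each other. The plot of fold change against level shows the called genes over the range of expression.

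**Figure D1:**
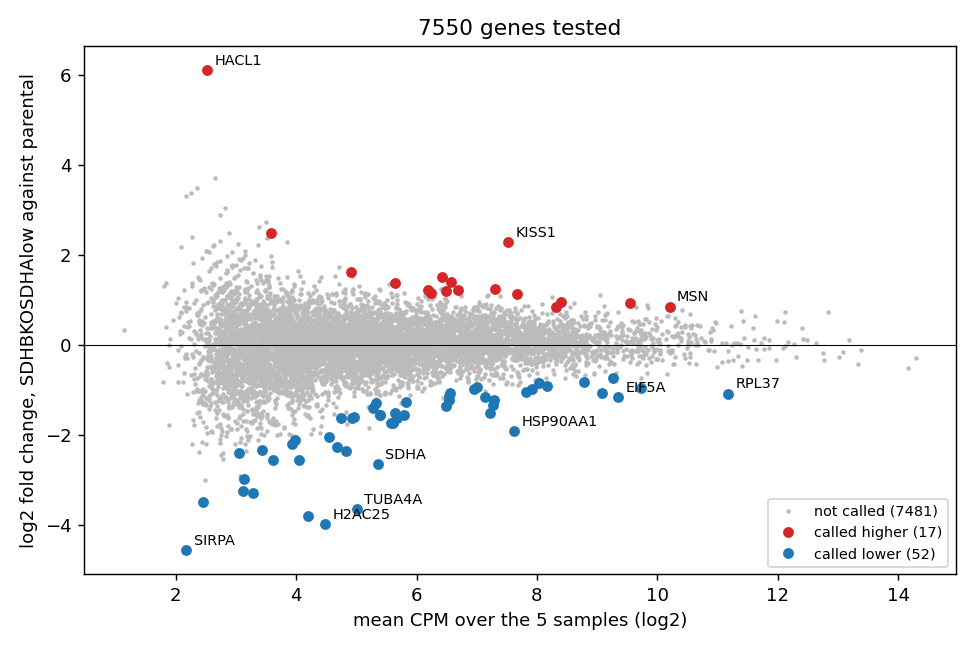
Log2 fold change of SDHBKOSDHAlow against parental cells (vertical axis) by the mean level over the 5 samples (horizontal axis, log2 CPM), 1 point per tested gene. The 52 genes called lower (blue) extend from low levels to RPL37, and the 17 called higher (red) include KISS1 and MSN; HACL1 had no parental count, so its fitted fold change is not a measured size.

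The number of called genes rested on single libraries. Without parental replicate 1, only 4 genes were called: SDHA, TRBC2, TUBA4A and H2AC25. The count was 26 without parental replicate 2, 8 without SDHBKOSDHAlow replicate 1, 172 without SDHBKOSDHAlow replicate 2 and 113 without SDHBKOSDHAlow replicate 3, and it fell to 32 and 38 without SDHBKO replicates 1 and 3. All 69 genes kept their direction in each of these 8 fits, and 17 were called in at least 6 of them. DESeq2 called 79 genes (1.99% of those to which it gave an adjusted p), of which 36 were higher and 43 lower, and 49 were among the 69. With all genes kept, 152 were called, 62 higher and 90 lower. The lower genes carried a difference between the parental samples: in 20 of 52, parental replicate 1 was more than 1.5 times replicate 2, against 16.7% of all tested genes, and the opposite held in 1. The opposite share over all tested genes was not taken, and the lower genes were called from these same 2 parental samples. These counts therefore do not set the lower genes apart. The part of this parental difference in the calls was not tested. For called genes, the number of these 8 fits in which the call was kept is given below.

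**Figure D2:**
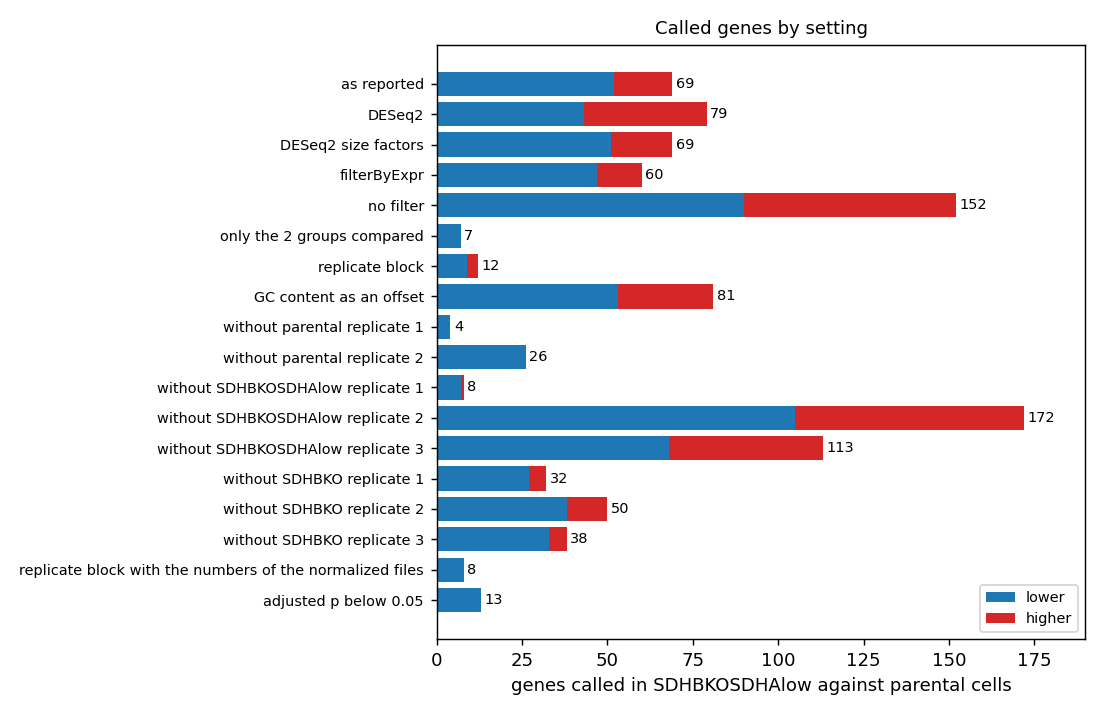
Number of genes called in SDHBKOSDHAlow against parental cells (horizontal axis) under each setting, split into lower (blue) and higher (red). The bars run from 4 genes without parental replicate 1 to 172 without SDHBKOSDHAlow replicate 2, with 69 in the fit reported.

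Besides SDHA, the genes with the firmest calls were TUBA4A and TRBC2, which were also called by DESeq2, with the replicate number as a block and in 8 of 8 fits without 1 sample. TUBA4A (chr2:219249710-219277902), an alpha-tubulin of the microtubules, was at 89.1 and 54.4 CPM in parental cells and at 4.83, 4.48 and 7.80 CPM in SDHBKOSDHAlow cells. The log2 fold change was -3.66 ± 0.37 (SE; edgeR, adjusted p = 1.19e-05), and SDHBKO cells, at 125, 113 and 108 CPM, were above the parental samples. TUBA4A thus stood at its lowest in the 3 SDHBKOSDHAlow samples, with no overlap with any other sample. TRBC2 (chr7:142801041-142802748), annotated as a constant segment of the T cell receptor beta locus, was at 42.8 and 41.2 CPM in parental, 78.0, 70.0 and 93.9 CPM in SDHBKO, and 2.41, 5.22 and 0 CPM in SDHBKOSDHAlow samples. Its log2 fold change against parental cells was -3.80 ± 0.51 (edgeR, adjusted p = 0.000468). TUBA4A and TRBC2 both have close paralogs with which reads can be shared, and a breast cancer line is not a usual source of TRBC2 transcripts, so that the gene behind these reads is uncertain.

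SDHA, TUBA4A and TRBC2 were among 9 of the 52 lower genes, and 1 of the 17 higher ones, that also passed the direct test of SDHBKOSDHAlow against SDHBKO cells, in which 1.51% of all genes were called. The other 7 of these were SIRPA, ABCC3, CRYBG1, PYGB, RRBP1, CDC25B and JUNB. Of them, SIRPA, PYGB, RRBP1 and CDC25B lie on chromosome 20. In the first 10 Mb of that chromosome, which hold SIRPA and CDC25B but not PYGB or RRBP1, 42 of 45 genes were below 0 against SDHBKO cells (median -0.85). Whether the falls of single genes there are part of this shift was not tested. SIRPA, the surface receptor that binds CD47, had 14 and 4 counts in parental, 14, 16 and 18 in SDHBKO and 0, 0 and 1 in SDHBKOSDHAlow samples. The ratio of parental to SDHBKOSDHAlow levels was 34.1, with a 95% interval from 5.39 to 1422 by exact counting, and the gene was called in 6 of 8 fits. ABCC3, an export pump for organic anions, had 11 and 9 counts in parental samples, 17, 5 and 14 in SDHBKO cells and 0, 2 and 1 in SDHBKOSDHAlow cells. That ratio was 12.6 (3.75 to 66.4), and ABCC3 was called in 3 of 8 fits. These intervals cover counting error only.

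PYGB, the brain form of glycogen phosphorylase, which releases glucose from glycogen, was at 231 and 250 CPM in parental, 224, 213 and 170 CPM in SDHBKO and 107, 73.9 and 106 CPM in SDHBKOSDHAlow samples. It fell by a log2 fold change of -1.34 ± 0.24 against parental cells (edgeR, adjusted p = 0.0163) and by -1.09 against SDHBKO cells (adjusted p = 0.0142). PYGB was called in 6 of 8 fits and lost without either parental sample, with log2 fold changes from -1.43 to -1.18. CDC25B, a phosphatase that activates cyclin-dependent kinases at the entry into mitosis, was at 381 and 335 CPM in parental cells, 469, 411 and 441 CPM in SDHBKO cells and 163, 214 and 216 CPM in SDHBKOSDHAlow cells. CDC25B had log2 fold changes of -0.85 against parental cells (edgeR, adjusted p = 0.0849, 2 of 8 fits) and -1.15 against SDHBKO cells (adjusted p = 0.00382). RRBP1, a ribosome-binding protein of the endoplasmic reticulum, was lower by a log2 fold change of -1.29 against parental cells and -1.35 against SDHBKO cells, and was called in 1 of 8 fits. CRYBG1 was lower by -2.41 and -2.27 and was called in none of the 8 fits.

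**Figure D3:**
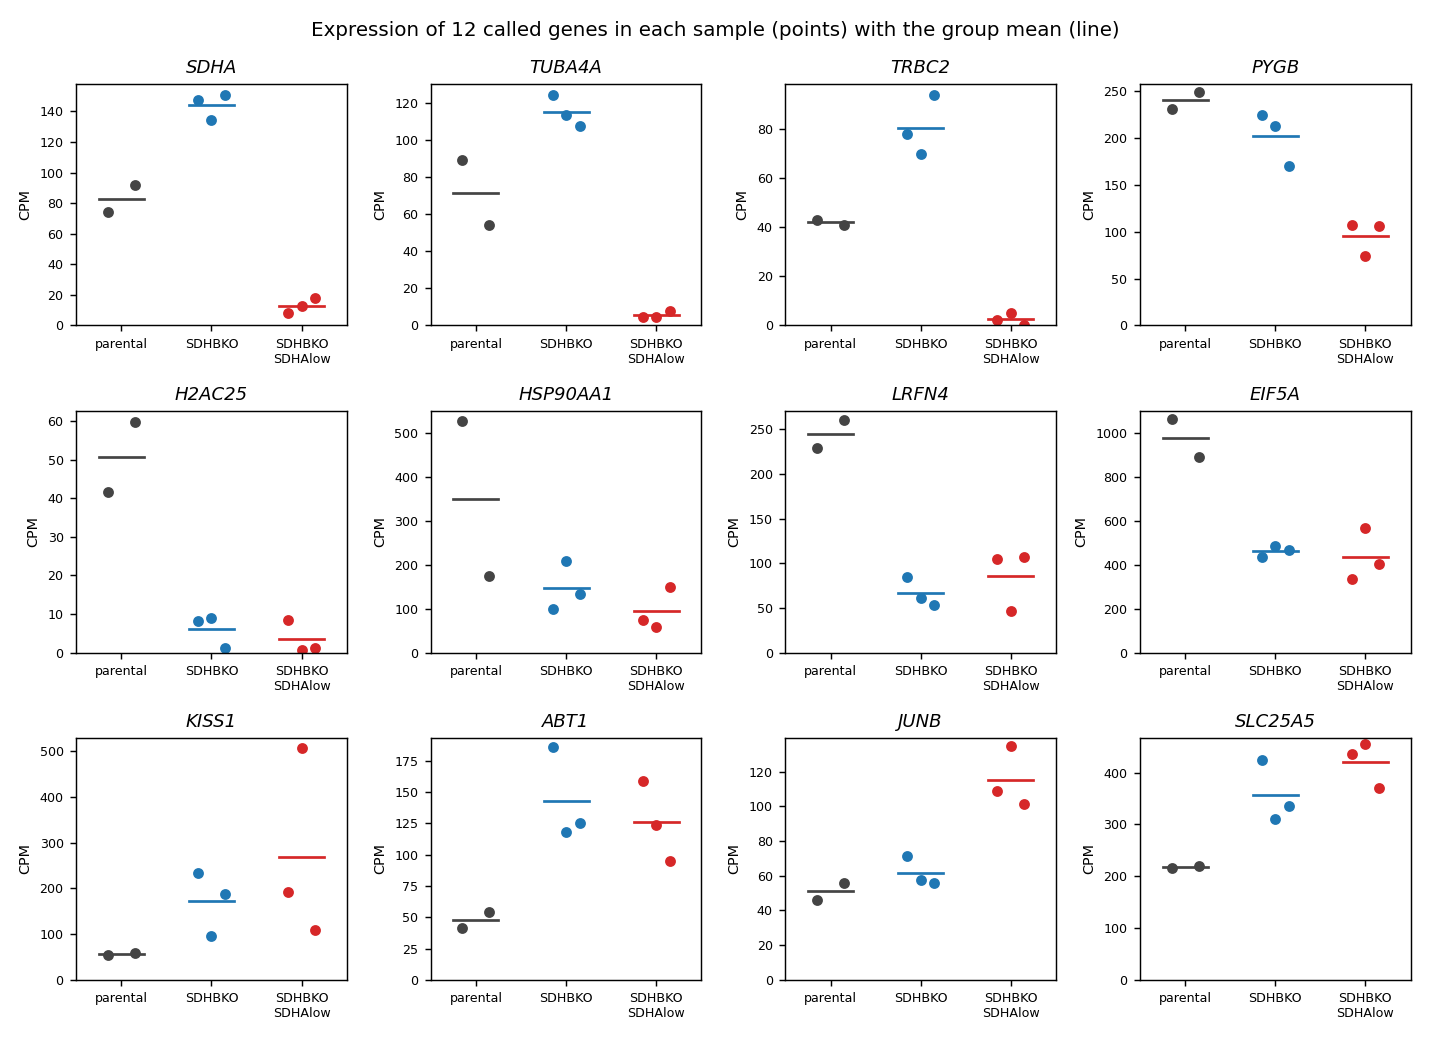
Level of 12 called genes (vertical axis, CPM from 0) in each sample (points) with the group mean (line), for parental (grey), SDHBKO (blue) and SDHBKOSDHAlow (red) cells. SDHA, TUBA4A, TRBC2 and PYGB were lowest in SDHBKOSDHAlow cells; H2AC25, LRFN4 and EIF5A were low in both SDHB-null groups; and KISS1 in SDHBKOSDHAlow cells ran from 109 to 507 CPM.

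For the other 43 lower genes the direct difference between SDHBKOSDHAlow and SDHBKO cells did not pass the test, and the 95% interval of that difference included 0 in 31 of the 52. The largest fall among them was in H2AC25 (chr1:228434777-228457873), a histone H2A gene. It was at 41.6 and 59.7 CPM in parental, 8.21, 8.89 and 1.08 CPM in SDHBKO and 8.45, 0.746 and 1.11 CPM in SDHBKOSDHAlow samples. The log2 fold change was -3.99 ± 0.66 (SE) in SDHBKOSDHAlow cells (edgeR, adjusted p = 0.00901) and -3.06 in SDHBKO cells (adjusted p = 0.0124), both against the same parental samples. H2AC25 was called in 8 of 8 fits, all samples of the SDHB-null groups lay below both parental samples, and the interval of the direct difference ran from -2.57 to 0.71. H2A genes are near-identical copies of each other, and reads may have been split among them.

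LRFN4, a synaptic adhesion protein, had 229 and 260 CPM in parental, 84.8, 61.1 and 52.9 CPM in SDHBKO and 105, 46.3 and 107 CPM in SDHBKOSDHAlow samples, with a log2 fold change of -1.53 ± 0.29 (SE; edgeR, adjusted p = 0.0369, 6 of 8 fits). EIF5A, the translation factor that carries hypusine and relieves stalled ribosomes, was at 1066 and 893 CPM in parental cells and between 335 and 567 CPM in the other 6 samples, with a log2 fold change of -1.17 ± 0.22 (adjusted p = 0.0326, 6 of 8 fits). For LRFN4 and EIF5A the samples of the SDHB-null groups were all below the parental ones, and they overlapped each other. LRFN4 was not called without either parental sample, and EIF5A was not called without parental replicate 1 or SDHBKOSDHAlow replicate 1. SORBS3, an adaptor at cell adhesions, and DGAT1, which makes triglycerides, had log2 fold changes of -1.23 and -1.37 and were called in 5 of 8 fits.

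Genes of protein folding and growth were among those whose parental samples disagreed. HSP90AA1, the inducible cytosolic chaperone, was at 528 and 174 CPM in parental, 98.5, 208 and 133 CPM in SDHBKO and 73.6, 58.2 and 149 CPM in SDHBKOSDHAlow samples. The log2 fold change was -1.92 ± 0.39 (SE; edgeR, adjusted p = 0.0422), but -0.90 without parental replicate 1 (adjusted p = 0.868), and DESeq2 gave an adjusted p of 0.148. HSPH1, a partner of HSP70, was at 105 and 57.1 CPM in parental cells and 24.1, 17.2 and 33.4 CPM in SDHBKOSDHAlow cells, with log2 fold changes of -1.73 in the full fit and -1.21 without parental replicate 1 (adjusted p = 0.852). KIF5B, a kinesin motor, was at 79.8 and 30.5 CPM in parental cells and 4.83, 10.4 and 16.7 CPM in SDHBKOSDHAlow cells, with a log2 fold change of -2.36, or -1.50 without parental replicate 1. Each of these 3 genes was lower in every SDHBKOSDHAlow sample than in both parental samples, and each was called in 6 of 8 fits, losing its call without parental replicate 1 and without SDHBKOSDHAlow replicate 1.

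The same pattern was seen for NRAS, a RAS GTPase, at 48.6 and 17.3 CPM in parental cells against 4.83, 5.97 and 5.57 CPM in SDHBKOSDHAlow cells (log2 fold change -2.56, or -1.62 without parental replicate 1, 6 of 8 fits). TFRC, the transferrin receptor that imports iron, was at 127 and 55.8 CPM in parental, 12.3, 15.6 and 9.71 CPM in SDHBKO and 43.4, 20.1 and 31.2 CPM in SDHBKOSDHAlow samples. Its log2 fold change was -1.57 in SDHBKOSDHAlow cells and -2.86 in SDHBKO cells, and the direct difference of 1.29 between them had an adjusted p of 0.184 (edgeR). TFRC was -0.84 without parental replicate 1 (adjusted p = 0.886) and was called in 5 of 8 fits. SMC4, a condensin subunit, was at 59.0 and 26.5 CPM in parental, 2.74, 4.45 and 2.16 CPM in SDHBKO and 10.9, 7.46 and 13.4 CPM in SDHBKOSDHAlow samples, with log2 fold changes of -2.04 in SDHBKOSDHAlow (6 of 8 fits) and -3.73 in SDHBKO cells. For TFRC and SMC4 every SDHBKOSDHAlow sample lay between the SDHBKO and the parental samples. PIEZO1, the stretch-activated cation channel, had parental samples that were close, at 78.7 and 88.9 CPM, against 25.3, 17.2 and 33.4 CPM in SDHBKOSDHAlow cells (log2 fold change -1.75, 5 of 8 fits).

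The other lower genes with large fold changes had few reads. EDN1, the vasoconstrictor peptide endothelin, was at 31.2 and 17.3 CPM in parental, 6.84, 18.9 and 6.47 CPM in SDHBKO and 4.83, 2.24 and 5.57 CPM in SDHBKOSDHAlow samples, with a log2 fold change of -2.57 (edgeR, adjusted p = 0.0768, 4 of 8 fits). ACSL3, which activates long-chain fatty acids, was at 42.8 and 14.6 CPM in parental and 8.45, 6.72 and 3.34 CPM in SDHBKOSDHAlow samples (-2.21, or -1.22 without parental replicate 1, 2 of 8 fits). LMO7, a protein of cell junctions, was at 15.04 and 26.5 CPM in parental and 6.03, 2.98 and 3.34 CPM in SDHBKOSDHAlow samples (-2.34, called in none of the 8 fits). In EDN1, ACSL3 and LMO7 all SDHBKOSDHAlow samples were below both parental ones. The centrosomal protein NIN and the anion channel subunit LRRC8C had log2 fold changes of -3.25 and -2.98, in 3 and 2 of 8 fits.

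Further lower genes lay between -1.62 and -0.75. HMGB1, an abundant chromatin protein, was at 105 and 65.0 CPM in parental and 35.0, 22.4 and 26.7 CPM in SDHBKOSDHAlow samples (-1.62, 6 of 8 fits), and was -1.23 without parental replicate 1 (edgeR, adjusted p = 0.848). PLCG1, a phospholipase of receptor signalling, was at 53.2 and 37.2 CPM in parental, 46.5, 31.1 and 25.9 CPM in SDHBKO and 12.1, 14.9 and 16.7 CPM in SDHBKOSDHAlow samples (-1.62, 5 of 8 fits). The 3 SDHBKOSDHAlow values of PLCG1 were the lowest, with an adjusted p of 0.135 for the direct difference from SDHBKO cells. INF2, an actin-nucleating formin, was at 180 and 175 CPM in parental, 69.8, 41.1 and 60.4 CPM in SDHBKO and 88.1, 97.7 and 81.3 CPM in SDHBKOSDHAlow samples, the last lying between the other groups (-0.99, 2 of 8 fits). Also lower were CDC42EP3 (-1.62), NSA2 (-1.62), HNRNPH3 (-1.57), CSE1L (-1.52), GPSM1 (-1.41), TBL3 (-1.28), ATG4D (-1.22), DPM2 (-1.14), DPP7 (-1.08), GNG5 (-0.93) and SH3BGRL3 (-0.75), in 1 to 6 of 8 fits each.

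The most abundant lower gene belonged to the ribosome. RPL37, a protein of the large ribosomal subunit, was at 3418 and 3400 CPM in parental, 2992, 2070 and 1779 CPM in SDHBKO and 1544, 1392 and 1853 CPM in SDHBKOSDHAlow samples. The log2 fold change was -1.09 ± 0.22 (SE; edgeR, adjusted p = 0.041), in 5 of 8 fits. NPM1, a nucleolar chaperone, was at 420 and 236 CPM in parental and 151, 196 and 127 CPM in SDHBKOSDHAlow samples, with a log2 fold change of -1.05 that was -0.57 without parental replicate 1 (adjusted p = 0.868, 2 of 8 fits). RPL37 and NPM1 have many processed pseudogenes, and reads shared with them could have been lost. Of the small nucleolar RNAs, SNORA73B and SNORA23 were lower by -3.29 and -2.11, in 3 and 1 of 8 fits. Both lie inside other genes on the same strand, and reads of host and small RNA cannot be told apart.

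The 17 higher genes were weaker calls, and each lost its call without either parental sample. KISS1 (chr1:204190341-204196491), which encodes the kisspeptin precursor and is known as a metastasis suppressor, was at 54.4 and 58.4 CPM in parental, 233, 95.6 and 188 CPM in SDHBKO and 193, 507 and 109 CPM in SDHBKOSDHAlow samples. Its log2 fold change was 2.27 ± 0.48 (SE; edgeR, adjusted p = 0.052, 6 of 8 fits), and 1.41 to 2.64 over the fits without 1 sample. All samples of the SDHB-null groups were above the parental ones, but SDHBKOSDHAlow replicate 2 was far above the rest. DESeq2 gave KISS1 an adjusted p of 0.104. SDHBKOSDHAlow replicate 2, the library that stood apart, was the highest of its group in 12 of the 17 higher genes. The same share over all tested genes was not taken, so this count does not set the higher genes apart. Without that library, 10 of the 69 called genes lost their call.

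HACL1 (chr3:15560699-15601852), a peroxisomal enzyme of alpha-oxidation of fatty acids, had 0 counts in both parental samples, 8, 11 and 6 in SDHBKO and 12, 10 and 6 in SDHBKOSDHAlow samples. Set against 3 counts over the parental group (1.85 CPM), it was at least 4.92-fold higher in SDHBKOSDHAlow cells, and it was called in 4 of 8 fits. JUNB, an AP-1 transcription factor, was the 1 higher gene that also differed directly from SDHBKO cells. It was at 46.3 and 55.8 CPM in parental, 71.2, 57.8 and 56.1 CPM in SDHBKO and 109, 135 and 101 CPM in SDHBKOSDHAlow samples, with log2 fold changes of 1.18 ± 0.27 (SE) against parental cells (edgeR, adjusted p = 0.0696, 5 of 8 fits) and 0.91 against SDHBKO cells (adjusted p = 0.0694). All 3 SDHBKOSDHAlow samples were above the other 5.

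SLC25A5, an ADP/ATP carrier of the inner mitochondrial membrane, was at 215 and 219 CPM in parental, 426, 311 and 336 CPM in SDHBKO and 437, 455 and 371 CPM in SDHBKOSDHAlow samples. It was higher by a log2 fold change of 0.96 ± 0.22 (SE; edgeR, adjusted p = 0.0703, 4 of 8 fits). ABT1, a nucleolar protein, was at 41.6 and 54.4 CPM in parental and 159, 124 and 94.7 CPM in SDHBKOSDHAlow samples (log2 fold change 1.39, 5 of 8 fits), and AP1S1, a clathrin adaptor subunit, was at 41.6 and 41.2 CPM in parental and 106, 178 and 64.6 CPM in SDHBKOSDHAlow samples (1.503, 2 of 8 fits). PSMD3, a proteasome lid subunit, and MSN, the membrane-actin linker moesin, had smaller log2 fold changes of 0.92 and 0.84, each in 3 of 8 fits. SH3BP5L (1.24) was called in 5 of 8 fits and RBM15B (1.12) in 3. The mRNA decapping scavenger DCPS (1.203), HDDC3 (1.38) and CSNK1G2 (0.83) were called in 2 of 8 fits each. The transcriptional regulator NACC1 (1.22) and CRACR2B (1.61) were called in 1 of 8, and OSR2 (2.49), which had 2.31 and 3.98 CPM in parental samples, in none of the 8. The direct difference from SDHBKO cells had a 95% interval that included 0 in 14 of the 17.

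**Figure D4:**
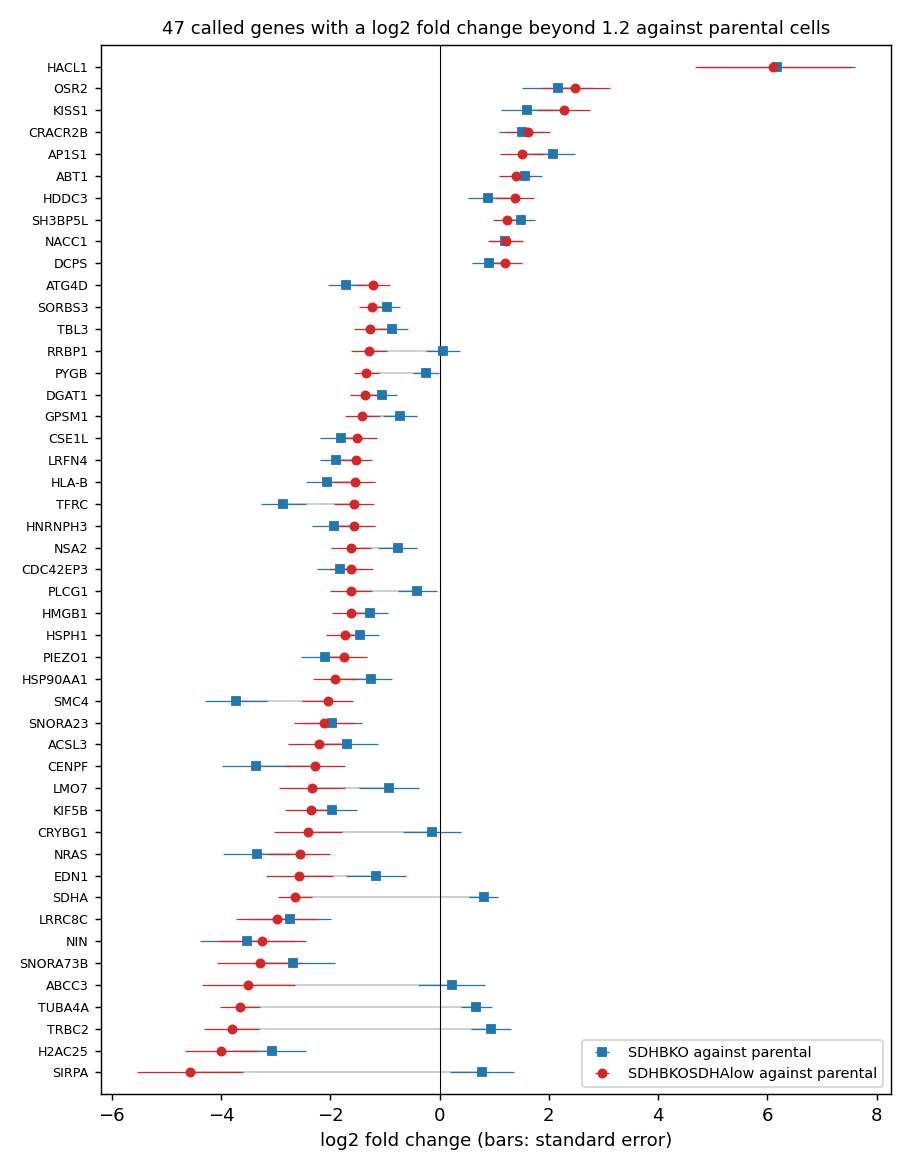
Log2 fold change (horizontal axis, bars are standard errors) of the 47 called genes beyond 1.2 in either direction, in SDHBKOSDHAlow (red circles) and SDHBKO cells (blue squares) against the same 2 parental samples. Grey lines join the values of a gene: they are long for SIRPA, TRBC2, TUBA4A, ABCC3 and SDHA, and shorter for most others; that of HACL1 is a fitted value with no parental count behind it.

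To describe metabolism and growth beyond single genes, 20 lists of genes with known roles were read, holding 589 genes of which 471 were tested and 11 (2.34%) were called, 2 higher and 9 lower. The other 58 called genes belong to none of them. Over all 7550 genes the median log2 fold change was 0.02, with 0.225% called higher and 0.689% lower. Most lists held 0 or 1 called gene, which is too few to set against that share. In the TCA cycle and aspartate supply, 0 of 27 tested genes were called higher and 1 lower, with a median of 0.05. The lower gene was IDH3B, a subunit of the isocitrate dehydrogenase that makes NADH, at 612 and 584 CPM in parental, 480, 521 and 546 CPM in SDHBKO and 280, 410 and 321 CPM in SDHBKOSDHAlow samples (log2 fold change -0.82, edgeR adjusted p = 0.0922, 1 of 8 fits). All SDHBKOSDHAlow values of IDH3B were the lowest, though the direct difference from SDHBKO cells had an adjusted p of 0.169. IDH3B lies in the first 10 Mb of chromosome 20. There, 42 of 45 genes were below 0 against SDHBKO cells and 38 against parental cells. Whether the fall of IDH3B is part of this shift was not tested. ASNS, which uses aspartate to make asparagine, was at 33.6 and 26.5 CPM in parental and 79.7, 73.1 and 41.2 CPM in SDHBKOSDHAlow samples (1.10, adjusted p = 0.199).

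In complex I, 1 of 34 tested subunits was called, and the median was 0.11. NDUFV1, the subunit that binds NADH, was at 385 and 417 CPM in parental, 301, 252 and 245 CPM in SDHBKO and 231, 185 and 224 CPM in SDHBKOSDHAlow samples, a log2 fold change of -0.91 ± 0.21 (SE; edgeR, adjusted p = 0.0696, 5 of 8 fits). In complexes III, IV and V, 1 of 36 was called with a median of 0.02. ATP5F1D, the delta subunit of ATP synthase, was at 340 and 348 CPM in parental, 177, 173 and 159 CPM in SDHBKO and 145, 163 and 209 CPM in SDHBKOSDHAlow samples (log2 fold change -0.997, adjusted p = 0.0575, 5 of 8 fits). Parental samples were close to each other for both genes and above all others. None of 67 mitochondrial ribosomal protein genes was called, with a median of 0.09.

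In glycolysis and lactate transport, 1 of 22 was called, with a median of -0.09. LDHB, the lactate dehydrogenase subunit that favours pyruvate formation, was at 256 and 167 CPM in parental, 177, 143 and 139 CPM in SDHBKO and 65.2, 99.2 and 116 CPM in SDHBKOSDHAlow samples. LDHB had a log2 fold change of -1.17 ± 0.26 (SE; edgeR, adjusted p = 0.0668, 6 of 8 fits), and -0.83 without parental replicate 1. HK2, a hexokinase bound to mitochondria, had the lowest value of the list, with 26.6 and 26.5 CPM in parental and 3.62, 9.70 and 11.1 CPM in SDHBKOSDHAlow samples (-1.66, adjusted p = 0.171). Targets of the hypoxia-inducible factors, which succinate can stabilise by inhibiting prolyl hydroxylases, had 0 of 16 called and a median of -0.20, from ERO1A at -1.12 to VHL at 0.94. CA9, a usual marker of that response, had 0 counts in all 8 samples.

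Pyrimidine synthesis was included because the study followed proteins of this pathway, in which dihydroorotate dehydrogenase needs respiratory chain activity. None of 19 tested genes of synthesis and salvage was called, and the median was 0.17. CAD, which carries the first steps, was at 400 and 429 CPM in parental, 363, 438 and 391 CPM in SDHBKO and 390, 344 and 433 CPM in SDHBKOSDHAlow samples, so that the groups overlapped. Its log2 fold change was -0.09 with a 95% interval from -0.52 to 0.33. DHODH, dihydroorotate dehydrogenase itself, had 0.18 (-0.70 to 1.07) and UMPS, which completes UMP, 0.36 (-0.27 to 0.99). At the top of the list was the uridine kinase gene UCKL1, at 4.63 and 3.98 CPM in parental and 10.9, 17.2 and 23.4 CPM in SDHBKOSDHAlow samples (1.96, edgeR adjusted p = 0.169).

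Genes of the cell cycle gave 3 calls. DNA replication and S phase had 0 of 38 called and a median of 0.00, from RFC1 at -0.99 to the primase subunit PRIM2 at 3.36 (edgeR, adjusted p = 0.169), which had 0 and 1.33 CPM in parental samples. In G2/M and mitosis 2 of 28 were called lower, with a median of -0.01: CDC25B, given above, and CENPF, a kinetochore protein. CENPF was at 76.4 and 21.2 CPM in parental and 8.45, 6.72 and 15.6 CPM in SDHBKOSDHAlow samples (-2.28, adjusted p = 0.0837), and was -1.07 without parental replicate 1 (adjusted p = 0.924, 5 of 8 fits). Among G1/S regulators 1 of 13 was called, with a median of -0.15. This was CDK2, the kinase of cyclins E and A, at 774 and 806 CPM in parental, 465, 447 and 286 CPM in SDHBKO and 448, 230 and 459 CPM in SDHBKOSDHAlow samples (-1.07 ± 0.26, SE; adjusted p = 0.0849, 3 of 8 fits).

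CDK6 had a log2 fold change of -0.32 (95% interval -1.70 to 1.06), which was 0.84 without parental replicate 1, and the CDK inhibitor CDKN2C had 0.20 (-0.96 to 1.36). CDKN2A had 0 counts in all 8 samples. MYC, a transcription factor that drives growth, was at 2.31 and 0 CPM in parental, 4.10, 4.45 and 4.32 CPM in SDHBKO and 12.1, 11.9 and 8.91 CPM in SDHBKOSDHAlow samples. The 3 groups of MYC did not overlap, but the parental level was below that of 3 counts, and the comparison with parental cells had an adjusted p of 0.147 (edgeR).

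**Figure D5:**
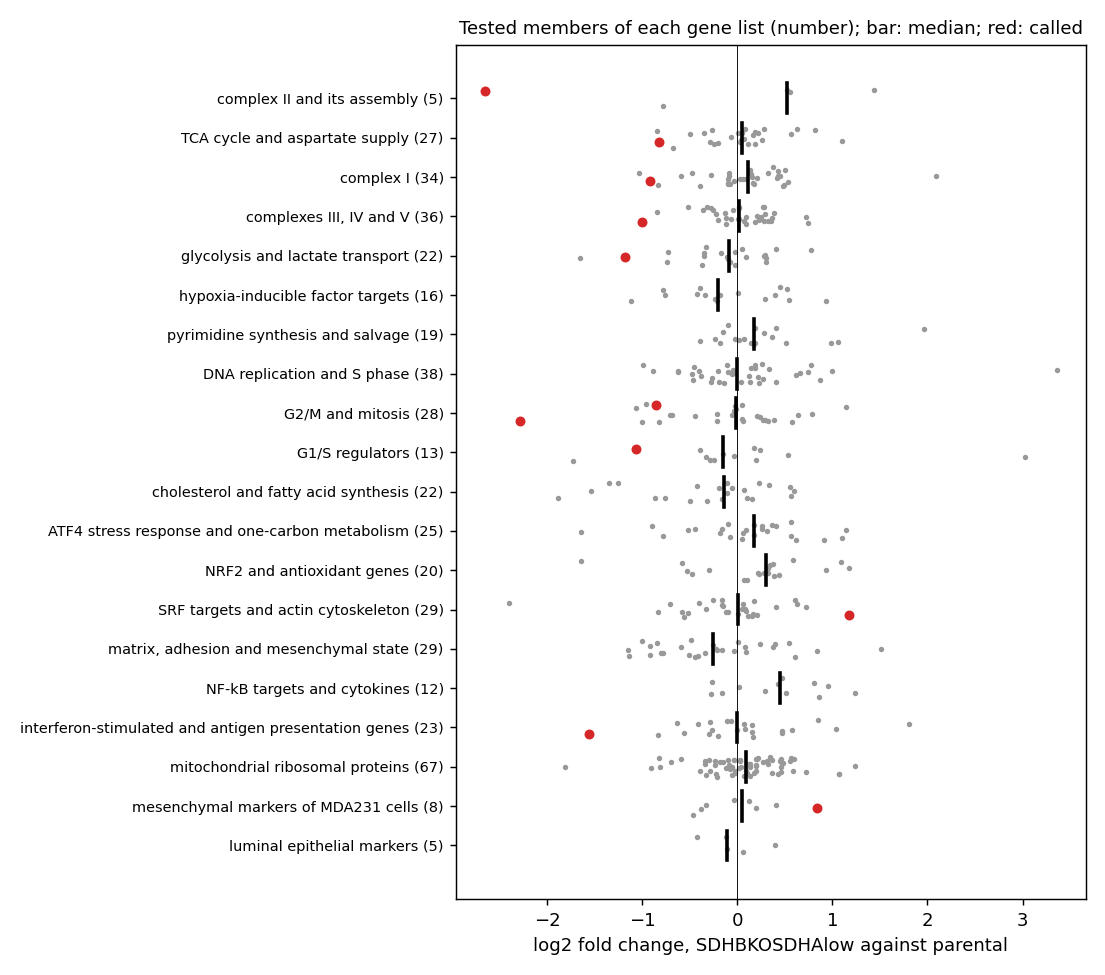
Log2 fold change of SDHBKOSDHAlow against parental cells (horizontal axis) for the tested members of each of 20 gene lists (rows, number tested in brackets), with called genes in red and the list median as a black bar. List medians lay between -0.26 and 0.52, and no list held more than 2 called genes.

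The remaining lists held at most 1 called gene each. The matrix, adhesion and mesenchymal list had the lowest median, -0.26, with 0 of 29 called, and ranged from ITGA6 at -1.15 to TGFB1 at 1.51. SRF targets and the actin cytoskeleton had 1 of 29 called, JUNB, with a median of 0.01. TAGLN, an actin-binding protein, was lowest there, at 9.26 and 11.9 CPM in parental, 21.9, 15.6 and 21.6 CPM in SDHBKO and 0, 3.73 and 1.11 CPM in SDHBKOSDHAlow samples. It did not pass against parental cells (-2.40, edgeR adjusted p = 0.169) but did against SDHBKO cells (-3.28, adjusted p = 0.0139).

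In the interferon and antigen presentation list 1 of 23 was called, HLA-B, a class I heavy chain, at 89.1 and 49.1 CPM in parental and 32.6, 17.2 and 22.3 CPM in SDHBKOSDHAlow samples (-1.56, edgeR adjusted p = 0.0768, 4 of 8 fits). HLA-B was -1.05 without parental replicate 1 (adjusted p = 0.868), and reads can be shared among the class I genes. NF-kB targets and cytokines had 0 of 12 called with a median of 0.45, and NRF2 and antioxidant genes 0 of 20 with 0.30. In these lists 9 of 12 and 15 of 20 members were above 0, against 3882 of all 7550 tested genes. None of these members passed the test, including the highest, CCL2 at 1.24 and HMOX1 at 1.17. Cholesterol and fatty acid synthesis had 0 of 22 called and a median of -0.13, with HMGCS1, an early enzyme of the pathway, at 18.5 and 10.6 CPM in parental and 3.62, 4.48 and 3.34 CPM in SDHBKOSDHAlow samples (-1.88, adjusted p = 0.201). The markers of the line itself had 1 of 8 called, MSN, with a median of 0.05, and the luminal list had 0 of 5 with -0.11.

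The ATF4 and one-carbon list had 0 of 25 called and a median of 0.18, with GDF15 highest at 1.14 and the cystine transporter SLC7A11 lowest at -1.64. PHGDH, which opens serine synthesis, was below the minimum count and was picked out after its values were seen. PHGDH reads numbered 12 and 10 in the parental samples and 0 in all 6 samples of the SDHB-null groups. Against 3 counts over the SDHBKOSDHAlow group (0.978 CPM), its level was at least 13.9-fold lower in SDHBKOSDHAlow than in parental cells, and its adjusted p was 0.00377 when all genes were kept and 0.0612 with the default filter of edgeR. DESeq2 gave PHGDH no adjusted p. Of the 117 list genes below the minimum, it was the 1 that passed when all genes were kept. PHGDH was not among the tested genes, so the 10 Mb windows described below leave it out. Whether its fall is part of a shift of its region was not tested.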

How the data were processed

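Expression was measured by 3' end sequencing (Lexogen QuantSeq) in 8 samples, grouped by the genetic modification in the labels. For the deposited raw counts, the authors dropped poor reads (Trimmomatic), then took out those of ribosomal or mitochondrial RNA (Sortmerna), and aligned and counted the rest with STAR 2.5.2b on GRCh38. The deposited normalized files hold a signal in which the authors divided the counts by a factor per sample; they were used only to match samples. Ambiguous, multimapping and unassigned reads (18.8% to 28.6% of each file) stayed out of library sizes.

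Genes with a BaseMean above 5 were fitted with edgeR 4.0.16 (TMM, quasi-likelihood) in R 4.3.3, with 3 groups and 8 samples in 1 fit (5 residual degrees of freedom), and called at a Benjamini-Hochberg adjusted p below 0.1. The biological coefficient of variation was 21.5%. Gene names and positions came from GENCODE release 44 (56948 of 58051 identifiers matched). Members and lists were chosen with earlier results of these data known. Genes were named by rule: CII genes and the pyrimidine and cell cycle genes the study followed, the largest non-overlapping calls (12 higher, 18 lower), called list members, the extremes of each list and the genes called in every fit. PIEZO1, HSPH1, LRFN4, EIF5A and other called genes outside the rule were chosen after their values were seen. A few called genes are not reported here. Alternatives were DESeq2 1.42.0, its size factors, other filters, a GC offset, a replicate block, the 2 groups alone, an adjusted p of 0.05 and each sample left out. On data simulated for this comparison over 7550 genes, 108 of 200 genes changed by 1 on the log2 scale and 199 of 200 changed by 2 were recovered, with 6.90% and 7.44% of calls false. In that simulation the changed genes were drawn only from those with higher counts, every gene had the same dispersion, and no library stood apart. These shares therefore do not carry over to the called genes, many of which had few reads.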

Additional observations from a re-analysis of the deposited data

How the results depend on the processing

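The count of 69 genes was 152 with no filter, 7 with only the 2 groups compared, 13 at an adjusted p below 0.05 and 4 to 172 when 1 sample was left out. It was 79 with DESeq2, 69 with its size factors, 60 with the default filter of edgeR and 81 with GC content as an offset. The replicate numbers did not pair the samples: deviations of same-numbered samples correlated at -0.27 to 0.09 (mean -0.07). With the replicate number as a block 12 genes were called (3 higher, 9 lower), and 8 with the SDHBKO numbers of the normalized files, a setting chosen after seeing the data; the cause of these shifts was not tested. Leaving out a parental sample leaves a parental group of 1, assumed to vary like the other groups. SDHA against SDHBKO stayed between -3.71 and -3.26 in every setting. Directions turned when 1 sample was left out for RFC1 (-1.74 to 0.79), CDK6 (-0.92 to 0.84), DHODH (-0.079 to 0.46), CDKN2C (-0.24 to 0.495) and VHL (-0.037 to 1.62). They turned without parental replicate 1 (RFC1 0.79, CDK6 0.84, DHODH -0.059), without SDHBKOSDHAlow replicate 1 (DHODH -0.079, VHL -0.037), for CDKN2C without parental replicate 2 (-0.0014) or SDHBKOSDHAlow replicate 3 (-0.24), and for CDKN2C with the block of the normalized numbers (-0.21). None of these genes was called. Other values of single genes kept their direction and lost their call in 498 cases, gained one in 3 and stayed on their side of the threshold in 1240. Depth limits the genes under about 4 CPM, and of the 69 called genes 18 had no adjusted p in DESeq2.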

Other observations

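The position of the called lower genes was looked at after their values were seen. Chromosome 13 held 3 among 73 tested genes (4.11%), chromosome 20 held 7 among 249 (2.81%) and chromosome 1 held 7 among 742 (0.943%), against 0.689% of all genes. Those on chromosome 20 were SIRPA, PYGB, CDC25B, RRBP1, IDH3B, PLCG1 and CSE1L. Medians were also taken over 157 windows of 10 Mb with at least 15 genes. Against parental cells the lowest were on chromosome 14 from 50 to 60 Mb (-0.60 over 23 genes) and on chromosome 1 from 110 to 120 Mb (-0.55 over 25 genes), and the first 10 Mb of chromosome 20 came 10th (-0.35 over 45 genes, 38 of them below 0). NIN was the 1 called lower gene in that window of chromosome 14, and NRAS the 1 in that of chromosome 1. Whether the falls of NIN and NRAS are part of these shifts was not tested. Against SDHBKO cells the first 10 Mb of chromosome 20 had the lowest median of the 157 (-0.85, with 42 of 45 genes below 0), followed by chromosome 5 from 30 to 40 Mb (-0.70 over 18 genes) and the first 10 Mb of chromosome 12 (-0.67 over 46 genes). SDHBKO cells themselves were above parental cells in these windows, with medians of 0.45, 0.19 and 0.47 in the same order, the last being the highest of the 157. Relative to parental cells, the median of the 45 genes on chromosome 20 was -0.56, -0.24 and -0.52 in the 3 SDHBKOSDHAlow samples and 0.32, 0.41 and 0.56 in the 3 SDHBKO samples. Copy number was not measured in these files.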
